A study of Mus musculus with 11 samples.

Results

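The array labelled VA_MEF was compared with the 3 arrays labelled D6_MEL, NRAS_MEL and HRAS_MEL, which are 4 of the 11 arrays of the series. They were picked out by their labels, but with earlier results of these data known. Each sample's own RNA, extracted with Trizol, carried Cy3, and a shared mouse embryo RNA carried Cy5 on every array, with no dye swap. The labels give no genotype, age or culture history for any of the 4, and each line has 1 array. Their descriptions name VA_MEF by the further code BAKE, give D6_MEL and NRAS_MEL a common code with Nras added for NRAS_MEL, and give HRAS_MEL a code of its own. The series title is the ground for reading MEL as melanocyte, and general knowledge for reading MEF as mouse embryonic fibroblast. What VA stands for is not in the labels, nor how RAS was introduced into the RAS-named lines.

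Melanocytes make pigment in melanosomes and hand them to neighbouring cells. Rab38, a small GTPase, helps bring pigment enzymes to the forming melanosome, and melanophilin (Mlph) ties the Rab27a-coated melanosome to the myosin Va motor. Fibroblasts are known for secreting collagens and other matrix proteins. Cells short of amino acids or burdened with unfolded protein in the endoplasmic reticulum (ER) raise a shared set of genes through the transcription factor ATF4, and ER chaperones through other branches of that response.

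All values are log ratios of own RNA over the embryo reference, taken as log2 and centred on each array's median. The deposited table does not state its direction, and every sign was turned. That direction is likely, not stated. In the deposited values the array farthest from the median of the 11 lay below it for albumin (Alb), by -10.0, and for the lung surfactant gene Sftpd, by -7.46, and genes of this kind are high in 1 organ. The titles name the sample first and the reference second, which runs against the direction taken. Were the table deposited as own RNA over reference, the signs below would all turn, and genes above the MEL range would be below it. The total count of genes outside the range, and whether a gene lies inside it, do not depend on the direction.

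Marker genes went against several labels of the series in the direction taken. Of 4 measured liver genes, 3 were highest on the array labelled Lung and 0 on the array labelled Liver. Both measured lung genes were highest on the array labelled Liver, and both measured heart genes, Nppb and Fabp3, on the array labelled Melan A. All 4 measured kidney genes were highest on the array labelled Kidney. The array labelled Heart had a correlation of 0.917 with D6_MEL across genes, against 0.265 with the array labelled Melan A. These organ genes were picked after the values were seen. No array was renamed, and every name below is the label's, which these data do not show to be right for the VA_MEF or MEL arrays either.

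The label VA_MEF was set against pigment cell and fibroblast genes. The pigment cell list, with 15 of its 38 genes measured, had a median level of 0.49 on the VA_MEF array, against -0.17 to 0.29 on the MEL arrays, and VA_MEF was the highest of the 11. The fibroblast and matrix list, with 24 of 54 genes measured, had a median level of -2.17 on VA_MEF, against -1.12 to -0.52 on the MEL arrays. That was the lowest of the 11, and with deposited signs kept it would have been the top of the 11. Markers of other cell types were compared too. The epithelial list stood at -2.73 on VA_MEF against -2.12 to -1.64 on the MEL arrays, the endothelial list at -2.01 against -1.93 to -0.66. The macrophage and blood list, at -2.76, was level with D6_MEL at -2.75, and its difference from the MEL mean turns sign with scaling. The muscle list, at -1.11 against -1.18 to -0.84, and the neural crest list, at -1.13 against -1.83 to 0.31, were inside the MEL range. For the epithelial, endothelial, and macrophage and blood lists VA_MEF was also the lowest of the 11. A low level was thus not particular to fibroblast genes. Of the 24 fibroblast genes, 4 lay above the MEL range, Col1a1 among them, and 16 below it. Of the 15 pigment genes, 9 lay above and 3 below, beside 28.9% and 33.4% of all genes. In the direction taken the pigment median was the highest and the fibroblast median the lowest of the 11, but single members go both ways. The pigment median of VA_MEF is the level of 1 member, Ap3b1, at 0.49 against 0.46 in HRAS_MEL. The markers Rab38 and Mlph are on that list. The receptors Ednrb and Kit, also on it, stood low in VA_MEF, at -3.48 and -1.63. What cell the array holds was not tested. The label is kept as a name only.

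Across 7058 genes measured on all 4 arrays, VA_MEF lay above the range of the 3 MEL arrays in 2041 (28.9%), below it in 2357 (33.4%) and inside it in 2660. After quantile normalization the balance turned, with 2078 above and 1898 below. It lay above by at least 1, a 2-fold gap to the nearest MEL array, in 151 genes (2.14%) and below by at least 1 in 292 genes (4.14%), so 443 genes (6.28%) lay outside on either side. Gaps of at least 2 were found for 11 genes above and 55 below. The larger gaps were thus more often below the range, in the direction taken. With the arrays scaled to 1 spread, 109 genes lay above by at least 1 and 225 below. The difference from the MEL mean had a median of -0.04 and an SD of 0.755 over all genes, and the SD of a gene between the 3 MEL arrays had a median of 0.293. Without D6_MEL, 251 genes lay above by at least 1, and without HRAS_MEL 452 lay below; a range over fewer arrays is narrower by construction.

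No gene passed the test. limma, with VA_MEF against the 3 MEL arrays and Benjamini-Hochberg adjustment over all genes, called 0 of 7058 genes (0.0%) at an adjusted p of 0.05. The smallest adjusted p was 0.0747, and 953 genes had an unadjusted p under 0.05, of which 393 were higher and 560 lower in VA_MEF. With a trended and robust variance 25 genes were called. Without HRAS_MEL 161 were called, and with the array labelled Heart added to the MEL arrays, which was chosen after the data were seen, 34. The test takes 3 lines as replicates of each other and assumes that VA_MEF would vary as they do, so its p-values measure the spread between lines. For a single gene, the smallest two-sided p of an exact permutation of 1 array against 3 is 0.5. Below, genes are therefore described by their levels and gaps.

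**Figure D1:**
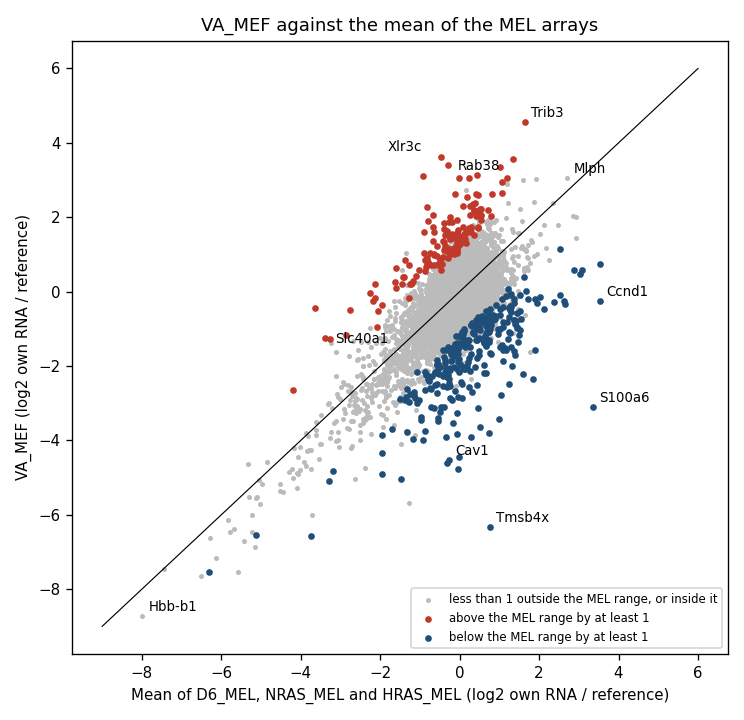
Each point is a gene, with its level on the VA_MEF array (vertical axis, log2 own RNA over reference) against the mean of D6_MEL, NRAS_MEL and HRAS_MEL (horizontal axis, same unit). Of 7058 genes, 151 lay above the MEL range by at least 1 and 292 below it, and S100a6 and Tmsb4x lay farthest below.

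VA_MEF also stood apart from the MEL arrays in the number of genes 2-fold apart. It differed at least 2-fold from D6_MEL in 1044 genes, from HRAS_MEL in 1243 and from NRAS_MEL in 1274. Pairs of MEL arrays differed in 485 to 788 genes. From the arrays labelled 3T3 and VA_475 it differed in 975 and 1157 genes, and from the array labelled Heart in 1113. The correlation across genes was 0.653 with D6_MEL, 0.611 with NRAS_MEL and 0.574 with HRAS_MEL, against 0.643 to 0.792 within the MEL arrays. It was 0.653 with 3T3, equal to 3 digits to that with D6_MEL. Genes are not independent replicates, so these are descriptions of single arrays that share 1 reference RNA.

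Both pigment genes that mark the comparison were high on the VA_MEF array, but only Rab38 lay outside the MEL range. Rab38 stood at 3.40 in VA_MEF, against 0.06 in D6_MEL, 0.04 in NRAS_MEL and -0.99 in HRAS_MEL. It was far above all 3, by 3.69 ± 0.50 (SE) over their mean (limma adjusted p = 0.0975). Mlph stood at 3.06 in VA_MEF, against 3.18 in D6_MEL, 2.55 in NRAS_MEL and 2.35 in HRAS_MEL. VA_MEF was thus inside the MEL range for Mlph, with a difference of 0.36 that turns to -0.10 when the arrays are scaled to 1 spread. On the arrays labelled 3T3 and VA_475, Mlph stood at -0.71 and -0.34, and on the array labelled Heart at 2.94.

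The rest of the melanosome genes lay closer together. Rab27a, the GTPase that recruits melanophilin, stood at 0.71 in VA_MEF against -0.59 in D6_MEL, -0.50 in NRAS_MEL and -0.82 in HRAS_MEL. Of the 15 measured pigment genes, 2 (Rab38 and Rab27a) lay above the MEL range by at least 1, against 2.14% of all genes, and 0 below it. Rab38 is itself a marker given for the comparison. Their median difference was 0.34, against -0.04 over all genes, and 0.15 with the arrays scaled to 1 spread. Cd63, a membrane protein of lysosomes and melanosomes, had 0.71 in VA_MEF against 1.15, 1.97 and 1.32 in D6_MEL, NRAS_MEL and HRAS_MEL. Ednrb, the endothelin receptor of melanocyte precursors, was low on all 4 arrays, at -3.48 in VA_MEF against -2.79, -2.41 and -2.98. Kit, the receptor of melanocyte growth, was inside the range.

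Neural crest and growth factor receptors did not follow Rab38. Of 9 measured genes of that list, 0 lay above the MEL range and 2 below it by at least 1 (4.14% of all genes), with a median difference of -0.75. Against single MEL arrays that median ran between -2.11 and 0.30, so its sign depends on the MEL array used. Those 2 were Fgfr1, a fibroblast growth factor receptor, and Mbp, a myelin protein. Fgfr1 stood at -4.46 in VA_MEF, against -0.98 in D6_MEL, 0.38 in NRAS_MEL and 0.56 in HRAS_MEL. The MEL arrays disagreed among themselves in others. Nes, an intermediate filament of neural precursors, stood at -0.40 in VA_MEF, between 2.76 in D6_MEL, 2.89 in NRAS_MEL and -2.05 in HRAS_MEL.

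Likeness to the marker genes was ranked by Pearson correlation over the 11 arrays among 7035 genes, as a description of arrays that share 1 reference. For Mlph the closest were Tbc1d10b (0.934), Exoc4 (0.905) and Ubash3b (0.889). For Rab38 they were Prmt2 (0.915), Dnajb11 (0.902) and Tiparp (0.895). Rab38 stood at 3.40 on VA_MEF and at 0.31 or lower on every other array. The VA_MEF array thus largely sets its ranking. Dnajb11, an ER co-chaperone, stood at 2.18 in VA_MEF, against 0.89 in D6_MEL, 0.29 in NRAS_MEL and 0.24 in HRAS_MEL.

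**Figure D2:**
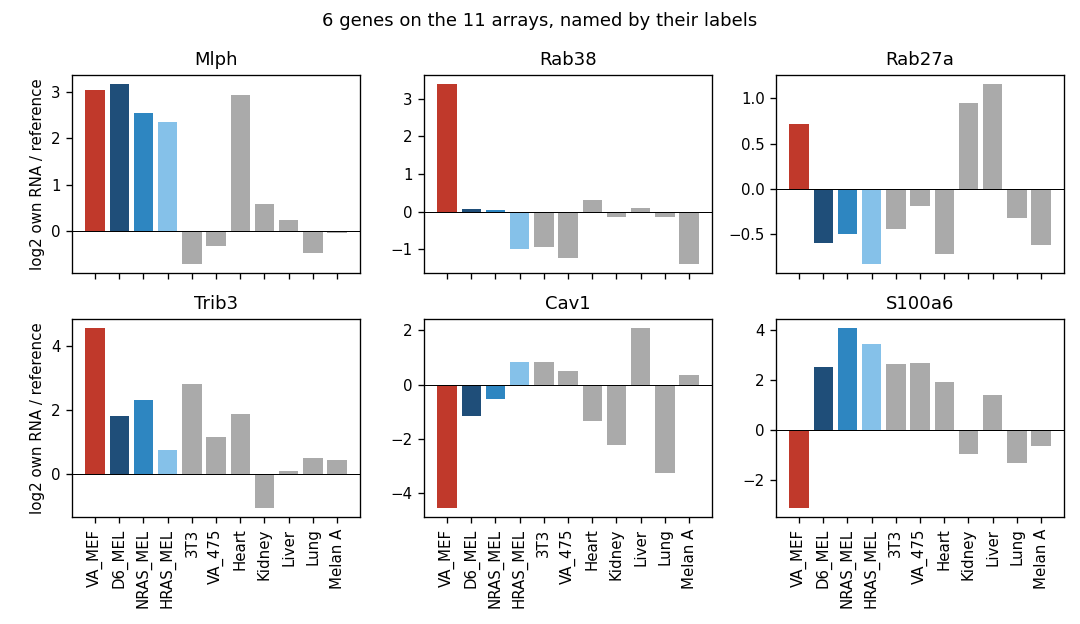
Levels of 6 genes on the 11 arrays (vertical axis, log2 own RNA over reference), with arrays named by their labels. Rab38 stood at 3.40 on VA_MEF and Mlph at 3.06, while Mlph stood at 3.18 on D6_MEL and at 2.94 on the array labelled Heart.

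The 12 genes farthest above the MEL range included stress, transport and ER genes. Xlr3c, of a multigene family with close copies that a cDNA probe may not tell apart, had 3.61 in VA_MEF against -0.58, -0.33 and -0.51 in D6_MEL, NRAS_MEL and HRAS_MEL. Its gap of 3.94 was the largest above the range. Hmox1, which breaks down haem and responds to oxidative stress, stood at 3.06 in VA_MEF against 0.28 in D6_MEL, -0.11 in NRAS_MEL and -0.22 in HRAS_MEL. Ero1a, the ER oxidase that drives disulphide formation, stood at 2.63 in VA_MEF against -0.22, 0.06 and -0.23. The choice by gap fixes that VA_MEF lies outside the MEL range for these genes. The others were Larp1b, Mipol1, Trib3, Mylk, Creld2, Slc40a1, St3gal6, Slc1a5 and Rab38. The 12 were each measured by 1 probe. VA_MEF was the highest of the 11 arrays for all but Mylk, where it was the third, and Slc40a1, where it was the fourth.

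The 12 genes farthest below were led by calcium, actin and membrane genes. S100a6, a calcium-binding protein, stood at -3.10 in VA_MEF, against 2.53 in D6_MEL, 4.08 in NRAS_MEL and 3.45 in HRAS_MEL. It had a difference of -6.46 ± 0.61 (SE; limma adjusted p = 0.0747). Tmsb4x, thymosin beta 4, which sequesters actin monomers, stood at -6.33 in VA_MEF, against 1.75, 1.33 and -0.81 in D6_MEL, NRAS_MEL and HRAS_MEL. These had the widest gaps of any gene, -5.63 and -5.52. Gsn, gelsolin, which severs actin filaments, stood at -3.43 in VA_MEF against 0.62, 0.61 and 1.71. Txnip, an inhibitor of thioredoxin, stood at -4.62 in VA_MEF against 0.13, -0.93 and -0.19.

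The coat of caveolae, small pits of the cell membrane, was represented by a pair of genes among the 12. Cav1, the main caveolin, stood at -4.53 in VA_MEF, against -1.14 in D6_MEL, -0.53 in NRAS_MEL and 0.83 in HRAS_MEL. Cavin1, which assembles the coat with caveolin, stood at -3.64 in VA_MEF, against -0.07, 0.23 and 1.41. Both were lower in VA_MEF than on every other array of the series. The remaining genes of the 12 were Matn2, Ttc9c, Col4a2, Mmp2, Fgfr1 and Anxa3. All 12 were lowest of the 11 arrays in VA_MEF, and each had 1 probe.

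**Figure D3:**
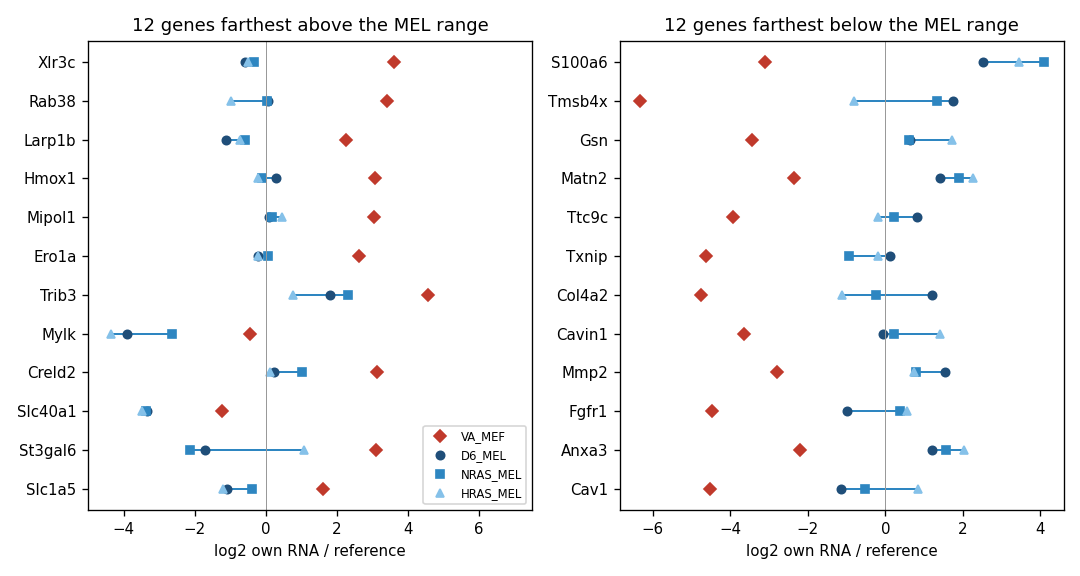
Levels (horizontal axis, log2 own RNA over reference) of the 12 genes farthest above and the 12 farthest below the MEL range, with VA_MEF and the 3 MEL arrays as separate points. The genes were chosen by their gap, which was 3.94 for Xlr3c and -5.63 for S100a6.

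Single ER genes lay above the MEL range on the VA_MEF array by gaps of different size, Calr4 lay inside it, and no list of ER genes was compared. Creld2, an ER protein made under ER stress, stood at 3.14 in VA_MEF, against 0.23 in D6_MEL, 1.01 in NRAS_MEL and 0.11 in HRAS_MEL. Hspa5, the ER chaperone BiP, was chosen after its values were seen. It stood at 2.37 in VA_MEF over 3 probes, against 0.42, 0.19 and 0.55, with a difference of 1.98 ± 0.33 (SE; limma adjusted p = 0.124). Also chosen after their values were seen were Manf, at 2.19 in VA_MEF against 0.07, 0.38 and 0.60, and Pdia4, a disulphide isomerase, at 1.35 against 0.10, -0.57 and -0.77. Of other ER genes, Hsp90b1 lay above the range by 0.97, Dnajc3 by 0.89 and Syvn1 by 0.88. Pdia6 lay above it by only 0.32, Calr by 0.57 and Canx by 0.55. Calr4 was inside it, at 0.66 in VA_MEF against 0.26, 0.62 and 0.96.

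Promoters of genes in these groups are shown because ER stress and amino acid genes are known for short elements near the gene start. Each is 250 bases before to 50 after the start, from RefSeq on GRCm38.p6, 5′ to 3′ on the gene's strand. Capitals mark the ER stress element, which is CCAAT, any 9 bases and then CCACG, in Creld2 and Hspa5, and the amino acid response core TGATGCAA in Atf3, read on either strand. Creld2 lies at chr15:88819396-88819695 on the + strand, Hspa5 at chr2:34771840-34772139 on the + strand and Atf3 at chr1:191183284-191183583 on the - strand.
Creld2: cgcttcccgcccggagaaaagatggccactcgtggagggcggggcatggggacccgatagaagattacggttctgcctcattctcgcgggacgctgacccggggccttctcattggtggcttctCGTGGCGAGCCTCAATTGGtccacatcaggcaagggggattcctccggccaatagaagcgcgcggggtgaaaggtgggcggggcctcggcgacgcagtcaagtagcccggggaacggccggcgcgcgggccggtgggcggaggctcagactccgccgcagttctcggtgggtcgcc
Hspa5: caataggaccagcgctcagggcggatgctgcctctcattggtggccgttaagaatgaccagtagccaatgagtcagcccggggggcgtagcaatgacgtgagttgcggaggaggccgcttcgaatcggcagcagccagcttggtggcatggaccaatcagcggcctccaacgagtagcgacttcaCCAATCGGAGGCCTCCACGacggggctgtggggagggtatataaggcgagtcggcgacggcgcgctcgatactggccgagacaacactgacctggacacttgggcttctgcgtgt
Atf3: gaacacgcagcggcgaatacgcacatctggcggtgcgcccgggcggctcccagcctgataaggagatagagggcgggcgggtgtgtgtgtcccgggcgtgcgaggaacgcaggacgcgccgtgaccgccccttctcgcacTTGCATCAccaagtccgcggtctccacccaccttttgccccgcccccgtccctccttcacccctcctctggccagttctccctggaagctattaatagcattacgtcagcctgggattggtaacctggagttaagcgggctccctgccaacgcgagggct
The ER stress element was found in 16 of 5703 promoters matched to compared genes (0.281%), and in 2 of the 7 matched promoters of the 12 highest genes (28.6%), those of Creld2 and Xlr3c. Of the 16 genes, 9 lay above the MEL range, 2 below it, and 3 above by at least 1, with a median difference of 0.89. Over all genes the shares were 28.9% above, 33.4% below and 2.14% above by at least 1. Creld2 and Xlr3c, chosen for their gaps, and Hspa5, chosen after its values were seen, are the 3. That median was 0.76 to 0.96 against single MEL arrays. The amino acid core was in 44 of 5703 promoters (0.772%) and in 5 of 19 of the amino acid response list (26.3%). Among the list's members above the MEL range by at least 1, it was in 1 of 7 matched promoters (14.3%), that of Atf3. The other 4 holders were Aars, Tars and Yars, all inside the range, and Vldlr, which lay below it. A match is a description of letters and shows no binding. The 12 highest genes were picked by their gap in these same values, so the share among them is no test of the element. The Xlr3c probe may not tell close copies apart, so its promoter may not belong to the RNA measured.

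Amino acid response genes had a median difference of 0.81 over 24 of 33 genes measured. Against single MEL arrays that median ran from 0.42 to 1.24. Of the 24 genes, 8 lay above the MEL range by at least 1 and 1 below it, with 2.14% and 4.14% of all genes in those classes. Trib3, a pseudokinase induced through ATF4, stood at 4.57 in VA_MEF, against 1.81 in D6_MEL, 2.32 in NRAS_MEL and 0.77 in HRAS_MEL. Atf4 itself stood at 2.06 in VA_MEF, against 1.06, 0.56 and -0.03. VA_MEF was the highest of the 11 arrays for both. Atf3, a stress transcription factor, stood at 2.0 in VA_MEF against 0.25, -0.11 and -0.87, and at 2.65 on the array labelled Heart.

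Transport and synthesis genes of the list were also above the range. Slc1a5, a glutamine transporter, stood at 1.62 in VA_MEF, against -1.09 in D6_MEL, -0.38 in NRAS_MEL and -1.20 in HRAS_MEL. Slc3a2, the heavy chain of amino acid exchangers, stood at 2.05 in VA_MEF against 0.36, -0.25 and 0.70. Mthfd2, a mitochondrial folate enzyme, stood at 3.57 in VA_MEF against 2.33, 1.14 and 0.55. For these 3, VA_MEF was above every MEL array. Psph, of serine synthesis, and Eprs, a tRNA synthetase, were the others above by at least 1. Not every member did this. Asns, asparagine synthetase, stood at 2.99 in VA_MEF and at 2.85 in D6_MEL, and Phgdh, the first enzyme of serine synthesis, lay just below the range at 1.80. Vldlr, a lipoprotein receptor, was the 1 below by at least 1, at -1.58 in VA_MEF against -0.53, -0.28 and -0.45.

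**Figure D4:**
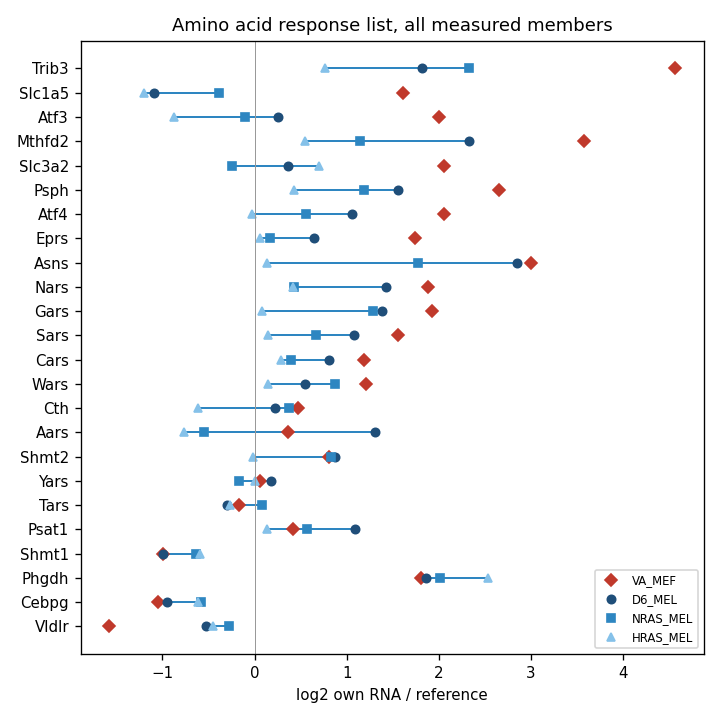
Levels (horizontal axis, log2 own RNA over reference) of the 24 measured amino acid response genes on VA_MEF and on the 3 MEL arrays. For 8 of them VA_MEF lies above the highest MEL point by at least 1, and Vldlr lies below.

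Fibroblast and matrix genes lay mostly below the MEL arrays. Of 24 measured, 0 lay above the MEL range by at least 1 and 10 below it (4.14% of all genes), with a median difference of -1.16. The median was -0.64 without HRAS_MEL, -0.48 after quantile normalization and -0.46 with the arrays scaled to 1 spread. Mmp2, a gelatinase, stood at -2.78 in VA_MEF, against 1.55 in D6_MEL, 0.79 in NRAS_MEL and 0.75 in HRAS_MEL. Col6a1, of collagen VI, stood at -5.03 in VA_MEF against 0.26, -1.63 and -3.03. The MEL arrays were spread widely for Mgp, matrix Gla protein, at -3.82 in VA_MEF against -2.72, 0.35 and 2.16. Col1a1, of collagen I, ran the other way, at -0.54 in VA_MEF against -0.80, -1.22 and -0.82.

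Growth factor signalling genes of the IGF and TGF-beta list had a median difference of -1.47 over 23 of 40 genes. Of these, 8 lay below by at least 1 and 1 above, beside 4.14% and 2.14% of all genes. Id1, a BMP-responsive inhibitor of helix-loop-helix factors, stood at -2.51 in VA_MEF, against 0.59 in D6_MEL, 0.34 in NRAS_MEL and 0.36 in HRAS_MEL. Id3, its relative, stood at -1.45 in VA_MEF against 1.12, 0.73 and 1.33. Id2 was the gene above, at 0.19 in VA_MEF against -1.57, -3.26 and -1.53. Igf1r, the IGF receptor, stood at -1.28 in VA_MEF against 0.63, 1.11 and 1.90.

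Cytoskeleton and LIM genes had 11 of 35 below by at least 1 and 1, Csrp1, above, beside 4.14% and 2.14% of all genes, with a median difference of -0.76. That median was -0.35 with the array labelled Melan A added, on which heart genes were highest. The annexins, which bind membranes in the presence of calcium, stood out. Anxa1 stood at -0.34 in VA_MEF, against 3.13 in D6_MEL, 2.26 in NRAS_MEL and 2.55 in HRAS_MEL, and Anxa3 at -2.21 against 1.21, 1.57 and 2.03. Anxa2, Anxa5 and Anxa6 were below by at least 1 as well.

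Targets of the MAP kinase pathway, through which RAS signals, had 3 of 14 below by at least 1 and 0 above, with a median difference of -0.64. Ccnd1, the cyclin D1 of the cell cycle, stood at -0.26 in VA_MEF, against 3.85 in D6_MEL, 4.45 in NRAS_MEL and 2.30 in HRAS_MEL. Fosl1, an AP-1 subunit, stood at -0.14 in VA_MEF against 1.66, 2.61 and 1.81. The third was Hmga2. Of all genes 4.14% lay below by at least 1. At any gap, 8 of the 14 lay below the MEL range and 1, Myc, above it, beside 33.4% and 28.9% of all genes. Ccnd1, Fosl1 and Hmga2 were lower in VA_MEF than in D6_MEL, which carries no RAS name, and in the RAS-named lines. A link to RAS was not tested. Among RAS genes and their regulators, 2 of 21, Rala and Ralgds, lay below by at least 1, again beside 4.14% of all genes, and 0 above, with a median difference of -0.35. Nras stood at -0.37 in VA_MEF against 0.18 in D6_MEL, 0.09 in NRAS_MEL and -0.35 in HRAS_MEL.

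Smaller groups went both ways. The oxidative stress list had 3 of 19 above by at least 1 (Hmox1, Txnrd1 and Cat) and 3 below, beside 2.14% and 4.14% of all genes, with a median of -0.19. That median was -0.61 without D6_MEL and 0.12 without NRAS_MEL. Txnrd1, thioredoxin reductase, stood at 2.35 in VA_MEF against 0.31 in D6_MEL, 0.31 in NRAS_MEL and 0.37 in HRAS_MEL. Glycolysis genes had 2 of 20 above (Pdk1 and Aldoc) and 1 below (Hk1), beside 2.14% and 4.14% of all genes, with a median of 0.38. Against single MEL arrays that median ran from -0.018 to 0.63, so its sign depends on the MEL array used. Imprinted genes had 3 of 16 below (4.14% of all genes), with a median of -0.60 that was -0.33 with the arrays scaled to 1 spread. Cholesterol synthesis genes had 1 of 9 below (4.14% of all genes), Fdft1, with a median of -0.60. That is a single gene and is read as no result about the list.

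The 74 ribosomal protein genes had a median difference of 0.14 with 0 outside by at least 1, beside 6.28% of all genes. The 54 oxidative phosphorylation genes had a median difference of -0.10 with 1 below by at least 1, beside 4.14% of all genes. The median over all genes was -0.04. Against single MEL arrays both list medians changed sign, running from -0.065 to 0.37 and from -0.36 to 0.12 in that order. Proliferation genes had 3 of 40 below by at least 1, beside 4.14% of all genes, a count read as no result about the list. Their median was -0.31, which was -0.18 without D6_MEL. With the array labelled Melan A added, the medians were -0.69 for oxidative phosphorylation and 0.082 for proliferation. For epithelial, macrophage and blood, interferon and MHC class I genes, 0 members lay outside by at least 1, beside 6.28% of all genes. In 4 further lists 1 member each lay above, a count that is read as no result about a list where 2.14% of all genes did so: Ets1 of 8 endothelial, Nppb of 8 muscle, Rrm2b of 10 p53 target and Neu1 of 31 lysosome genes, and 2 of 11 Wnt and Notch genes, Apcdd1 and Dkk1, lay below, beside 4.14%.

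**Figure D5:**
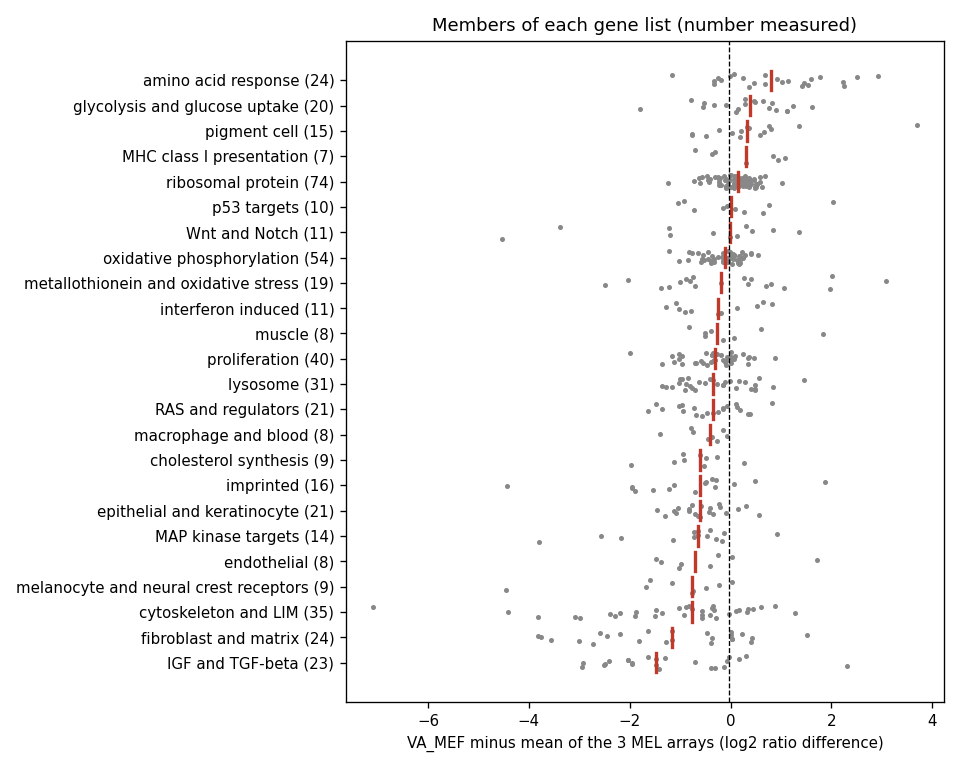
Each point is a measured member of a gene list, placed by its difference between VA_MEF and the mean of the 3 MEL arrays (horizontal axis, log2 ratio difference), with 1 row per list and the number measured beside its name. The amino acid response list has a median of 0.81 and the IGF and TGF-beta list of -1.47, against -0.04 over all genes.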

How the data were processed

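2-colour cDNA arrays measured RNA of 11 mouse samples, 1 array each. The authors deposited 1 log ratio of the channels per probe, read here as log2. Its base, direction, background correction and normalization are stated nowhere in the labels (not given in the sources used here). Each array had 15170 to 15210 values over 15247 probes. Precision is limited by the number of arrays, and signal over background was not analysed.

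Signs were turned, arrays centred on their median and probes of 1 symbol averaged. Through the platform annotation 9600 probes had 1 symbol, 214 several and 5433 none listed; 9492 were found in RefSeq (GRCm38.p6), changing 0 symbols. The 4 arrays were compared over 7058 genes with limma 3.58.1 in R 4.3.3, tested on simulated data first. Named genes are the 12 highest and 12 lowest by gap, the 4 largest differences per list, Mlph, Rab38 and 3 genes like each. Outside that rule, and named after their values were seen, are Alb, Sftpd, Fabp3, Ednrb, Kit, Ap3b1, Atf4, Slc3a2, Asns, Phgdh, Psph, Eprs, Vldlr, Aars, Tars, Yars, Col1a1, Id2, Csrp1, Anxa1, Anxa5, Anxa6, Cat, Dkk1, Myc, Nras, Hspa5, Manf, Pdia4, Pdia6, Hsp90b1, Dnajc3, Syvn1, Calr, Canx and Calr4. Alternatives changed scaling, probes, arrays, variance model and log base. The arrays, lists and rule were chosen with earlier results of these data known.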

Additional observations from a re-analysis of the deposited data

How the results depend on the processing

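The count of genes called by limma was 0 as compared here and with uncentred columns, quantile normalization, arrays scaled to 1 spread, medians of probes, noisy probes left out and the array labelled Melan A added. It was 3 with 1 probe per gene, 25 with a trended and robust variance, 34 with the array labelled Heart added (chosen after seeing the data) and 0 to 161 when 1 MEL array was left out. Genes above the MEL range by at least 1 numbered 87 with the array labelled Melan A added, 340 if the logs are natural and 193 to 251 with 1 MEL array left out; those below numbered 154, 530 and 340 to 452. Heart genes were highest on the array labelled Melan A, so this alternative is given by its label only. Smaller counts with more arrays follow from a wider range.

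List medians moved by more than the spread between MEL arrays under some settings, and the cause was not tested. With the arrays scaled to 1 spread they were 0.15 for pigment cell, -0.46 for fibroblast, -0.18 for epithelial, -0.40 for endothelial, 0.031 for macrophage and blood (sign turned), -0.045 for muscle, -0.33 for imprinted, -1.09 for IGF and TGF-beta and -0.59 for cytoskeleton genes. After quantile normalization they were -0.48 for fibroblast, -0.12 for epithelial, -0.30 for endothelial, -0.021 for macrophage and blood, 0.057 for muscle (sign turned), -1.26 for IGF and TGF-beta, -0.57 for cytoskeleton and -0.24 for RAS genes. With the array labelled Melan A added they were 0.59 for pigment cell, -1.33 for endothelial, -1.05 for macrophage and blood, -0.59 for muscle, 0.082 for proliferation (sign turned), -0.35 for cytoskeleton, -0.10 for lysosome, -0.69 for oxidative phosphorylation and -0.24 for RAS genes. With the array labelled Heart added the cytoskeleton median was -0.59. With 1 probe per gene, muscle was -0.44 and cytoskeleton -0.90. Leaving out 1 MEL array gave -1.38 to -0.64 for fibroblast, -0.37 to -0.18 for proliferation, -0.77 to -0.60 for MAP kinase, -0.83 to -0.47 for imprinted, -0.29 to -0.15 for Wnt and Notch, -0.82 to -0.58 for cytoskeleton and -0.61 to 0.12 for oxidative stress genes. Of single genes, Mlph turned to -0.10 and Hbb-b1 to 0.51 with the arrays scaled to 1 spread, Tpm1 to -0.0077 with the array labelled Melan A added, Smtn to 0.022 after quantile normalization and Dtx1 to -0.16 without HRAS_MEL (-0.16 to 2.14 over the MEL arrays left out). No paired analysis was possible because VA_MEF is 1 array and the labels pair it with no MEL array.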

Other observations

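Probes with no single gene name were left out of the comparison above. Of 5603 such probes measured on all 4 arrays, VA_MEF lay above the MEL range by at least 1 for 85 and below it for 98, which is 3.27% of them. Of the 443 named genes outside the range by at least 1, 372 had 1 probe, and of the 71 with several, 69 had every probe on the same side.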
